A study of Mus musculus with 99 samples.

Results

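The genes for the pore-forming subunits of AMPA and kainate receptors were followed through 5 brain regions of juvenile mice. There are 9 such genes among the 55335 counted: Gria1 to Gria4 for AMPA receptors (4 genes) and Grik1 to Grik5 for kainate receptors (5 genes). They were picked by symbol, through the GENCODE M21 annotation of mouse build GRCm38. All 9 were detected well enough to be tested in every region.

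The mice were wildtype offspring of C57BL/6 dams. In the fentanyl groups the dams drank 10 µg/ml of the opioid fentanyl in their water from the first day of gestation until weaning, and in the water groups they drank water. At juvenile age the offspring gave tissue punches of 5 regions, namely nucleus accumbens (NAc), somatosensory cortex (S1), the cortex labelled Prrelimbic cortex (PrL), ventrobasal thalamus (VBT) and ventral tegmental area (VTA). Females and males were sequenced separately, with 5 libraries for each region, sex and treatment, except male water in S1 with 4. The labels give no ages, litters, or numbers of animals behind a punch, so the p-values here measure the spread between libraries.

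Of 99 libraries, 98 were used. The library labelled male water 3 of VTA was left out because it held fewer than 10000 detected genes, so male water in VTA has 4 libraries. The totals of the 98 ranged from 23032078 to 52069639 counts. The 6 dopamine neuron markers had a mean log2(CPM + 1) of 3.94 to 6.47 in VTA libraries and at most 1.78 elsewhere, where CPM is a gene's count scaled to the library total. The 6 relay neuron markers of the thalamus reached 7.17 to 8.65 in VBT against at most 4.82 elsewhere, and the striatal markers 7.19 to 8.96 in NAc against at most 6.52. Cortical markers reached 6.53 to 7.12 in S1 and PrL and ranged up to 6.01 in the other regions. Some libraries stood apart: in PrL, female water 5 and male water 3 held olfactory bulb markers (mean log2 level of 4.83 and 5.66), and in VBT female water 2 held choroid plexus markers. An alternative fit of VBT without libraries that stand apart also left out female fentanyl 1.

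Glutamate released at excitatory synapses opens AMPA receptors, assemblies of subunits that carry most of the fast current. Receptors that contain the edited form of the Gria2 product admit little calcium, whereas those built from the other subunits admit it. Kainate receptors share this plan: the products of Grik1, Grik2 and Grik3 bind glutamate with low affinity and can form channels alone, while those of Grik4 and Grik5 bind it tightly and need a partner from the first set. In dopamine areas and the accumbens, the make-up of AMPA receptors is known to shift after exposure to drugs of abuse.

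The families are alike at the stretch that lines the pore, and it is shown because this is where the subunits' permeability is set. Each line gives 60 bases of coding sequence in the 5′ to 3′ direction, read from the GENCODE M21 transcripts (GRCm38), with the codon of the Q/R site in capitals. This site is a glutamine in the gene, and in Gria2, Grik1 and Grik2 transcripts it is a known target of A-to-I editing, which makes it read as arginine.
Gria1: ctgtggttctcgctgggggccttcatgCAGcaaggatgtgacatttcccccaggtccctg
Gria2: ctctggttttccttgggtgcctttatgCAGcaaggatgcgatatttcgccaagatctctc
Gria3: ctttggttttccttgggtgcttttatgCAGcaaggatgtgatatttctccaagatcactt
Gria4: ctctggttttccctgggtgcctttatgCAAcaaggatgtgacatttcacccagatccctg
Grik1: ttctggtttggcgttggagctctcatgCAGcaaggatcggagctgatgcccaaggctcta
Grik2: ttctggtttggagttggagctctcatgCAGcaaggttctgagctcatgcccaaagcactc
Grik3: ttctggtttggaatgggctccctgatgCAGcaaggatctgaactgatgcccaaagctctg
Grik4: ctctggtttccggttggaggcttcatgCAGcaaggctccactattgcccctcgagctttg
Grik5: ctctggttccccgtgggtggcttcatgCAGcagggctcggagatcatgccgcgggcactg
The codon is CAG in 8 of the 9 genes and CAA in Gria4, and both read as glutamine. In Gria2, on the minus strand, it lies in exon 11 of 16 at chr3:80706911-80706913 and is residue 607 of 883 counted from the initiator methionine. Over the 60 bases, Gria3 matched Gria2 at 54, Gria4 at 52 and Gria1 at 47 positions. Among the kainate genes, Grik1 matched Grik2 at 53 and Grik3 at 49 positions, whereas Grik4 and Grik5 matched it at 37 and 41. So Grik1 and Grik3, the other kainate genes whose products can form channels alone, resemble Grik2 here more closely than Grik4 and Grik5 do. Counts per gene do not tell edited from unedited transcripts.

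Where each subunit is used was read from the 48 water libraries. To compare genes of different length, a level here is CPM divided by the summed exon length in kb. Regions were compared in 1 edgeR fit of quasi-likelihood F-tests, and adjusted p-values are by Benjamini-Hochberg over the 21468 genes tested. The 2 AMPA genes Gria1 and Gria2 were highest in NAc and lowest in VBT, Gria3 was lowest in VTA, and Gria4 ran the other way, with its peak in VBT and its minimum in NAc. Of the kainate genes, Grik1 was highest in VBT, Grik4 in VTA, and Grik2, Grik3 and Grik5 in NAc. In bulk tissue, fewer cells of a type and less RNA per cell cannot be told apart.

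**Figure D1:**
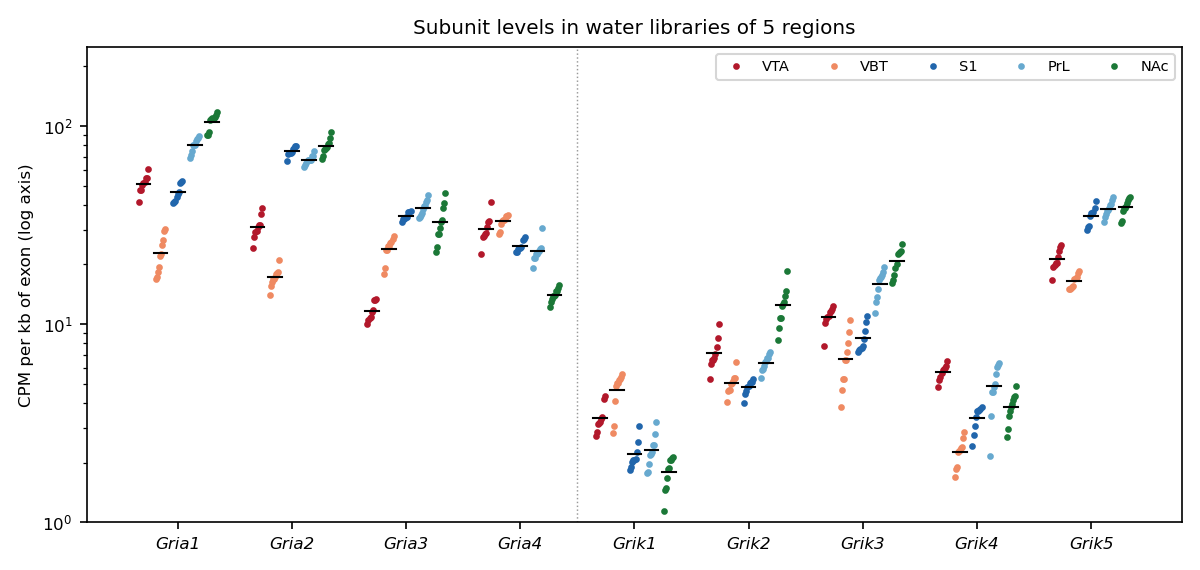
Levels of the 9 subunit genes in the water libraries of 5 regions, in CPM per kb of exon on a log axis; each point is 1 library, each bar the mean, and the dotted line parts AMPA (left) from kainate genes (right). Gria1 spans 22.9 in VBT to 105 in NAc, whereas Gria4 falls from 33.0 in VBT to 14.1 in NAc.

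Gria1 (chromosome 11, 57011387 to 57330244, plus strand) encodes a subunit that is added to synapses during plasticity. Its level was 105 ± 10.0 (SD, n = 10) in NAc, 79.9 ± 6.56 (n = 10) in PrL, 51.1 ± 5.44 (n = 9) in VTA, 46.2 ± 4.78 (n = 9) in S1 and 22.9 ± 4.91 (n = 10) in VBT. The NAc libraries ran from 90.0 through a median of 109 to 118, and the VBT libraries from 16.9 through 22.4 to 30.1. The mean in NAc was thus 4.59 times that in VBT, with no overlap, and of neighbours in the order only VTA and S1 missed the threshold (log2 difference 0.06 ± 0.08 SE, adjusted p = 0.553).

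Gria2 (chromosome 3, 80681450 to 80802835, minus strand) encodes the subunit that limits calcium entry. Its level was 78.8 ± 7.24 in NAc, 74.5 ± 4.05 in S1, 67.5 ± 3.69 in PrL, 31.1 ± 4.33 in VTA and 17.2 ± 1.84 in VBT. The gene split the regions into a set of NAc, S1 and PrL and a set of VTA and VBT: the lowest library of the first set was at 62.3 and the highest VTA library at 38.7. Within the first set, NAc and S1 (adjusted p = 0.973) and S1 and PrL (0.083) missed the threshold, and VTA exceeded VBT by 0.70 ± 0.06 (SE) on the log2 scale (adjusted p = 1.35e-13).

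Gria3 (chromosome X, 41400854 to 41678601, plus strand) was lowest in VTA, at 11.7 ± 1.32, and reached 24.0 ± 3.22 in VBT, 32.7 ± 7.22 in NAc, 35.0 ± 1.63 in S1 and 38.65 ± 3.44 in PrL. The VTA libraries, from 10.0 through 11.5 to 13.4, lay under all others, the next being a VBT library at 17.8. PrL and S1 did not differ past the threshold (adjusted p = 0.149), and the NAc libraries spread from 23.1 to 45.8 across the ranges of VBT, S1 and PrL.

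Gria4 (chromosome 9, 4417896 to 4796234, minus strand) encodes a subunit with fast kinetics that is common in thalamic and brainstem neurons. Its level was 33.0 ± 2.51 in VBT, 30.3 ± 5.14 in VTA, 24.9 ± 1.68 in S1, 23.3 ± 2.98 in PrL and 14.06 ± 1.053 in NAc. The NAc libraries, from 12.2 through 14.0 to 15.8, lay below all others, the lowest elsewhere being a PrL library at 19.2. S1 and PrL missed the threshold (adjusted p = 0.36). The differences of VTA from VBT (adjusted p = 0.00146) and from S1 (0.0301) passed it, with overlapping libraries.

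The kainate genes were lower per kb than most AMPA genes, apart from Grik5. Grik1 (chromosome 16, 87895900 to 88290265, minus strand) was at 4.65 ± 0.995 in VBT, 3.38 ± 0.542 in VTA, 2.31 ± 0.445 in PrL, 2.203 ± 0.384 in S1 and 1.79 ± 0.336 in NAc. PrL and S1 were the neighbours that missed the threshold (adjusted p = 0.726). Grik1 therefore ordered the regions much as Gria4 did, from VBT down to NAc.

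Grik2 (chromosome 10, 49094833 to 49788766, minus strand) was highest in NAc at 12.4 ± 2.87, where its libraries spread from 8.34 through 12.5 to 18.5. It was at 7.19 ± 1.38 in VTA, 6.39 ± 0.575 in PrL, 5.03 ± 0.638 in VBT and 4.81 ± 0.409 in S1. VTA and PrL (adjusted p = 0.591) and VBT and S1 (0.256) missed the threshold. NAc exceeded VTA by 0.81 ± 0.09 (SE) on the log2 scale (adjusted p = 4.62e-10), with overlap between their libraries.

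Grik3 (chromosome 4, 125490700 to 125714173, plus strand) was at 20.7 ± 3.20 in NAc, 15.98 ± 2.61 in PrL, 10.9 ± 1.37 in VTA, 8.48 ± 1.38 in S1 and 6.71 ± 2.08 in VBT. NAc and PrL (adjusted p = 0.0525) and VTA and S1 (0.0596) missed the threshold. The 2 cortical regions differed: PrL exceeded S1 by 1.89-fold (adjusted p = 3.91e-07).

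Grik4 and Grik5, the high-affinity partners, had unlike patterns. Grik4 (chromosome 9, 42518135 to 42944493, minus strand) was highest in VTA at 5.73 ± 0.512, followed by PrL at 4.89 ± 1.32, NAc at 3.83 ± 0.666, S1 at 3.35 ± 0.484 and VBT at 2.27 ± 0.359. VTA and PrL (adjusted p = 0.333) and NAc and S1 (0.481) missed the threshold. Of the 2 PrL libraries that held olfactory bulb markers, male water 3 had the lowest PrL level of Grik4, 2.17, against 6.38 in the highest, and female water 5 had 4.57, near the PrL mean.

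Grik5 (chromosome 7, 25009849 to 25072346, minus strand) was the most abundant kainate gene in every region. Its level was 38.96 ± 3.86 in NAc, 38.3 ± 3.41 in PrL, 35.2 ± 3.90 in S1, 21.3 ± 2.71 in VTA and 16.4 ± 1.31 in VBT. Neighbours among NAc, PrL and S1 missed the threshold (adjusted p = 0.36 for NAc and PrL, 0.0877 for PrL and S1), and S1 exceeded VTA by 1.75-fold (adjusted p = 3.77e-15).

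Between regions, all 9 genes differed at adjusted p under 0.05 for VTA against VBT, where 52.5% of all genes were called, VTA against NAc (64.8%), VBT against PrL (68.4%) and VBT against NAc (67.8%). Of the 9, 8 differed for VBT against S1 (68%), and 7 each for VTA against S1 (67.6%) and PrL (66.5%). Fewer were called among S1, PrL and NAc: 6 for S1 against NAc (53.3%), 6 for PrL against NAc (50.3%) and 4 for S1 against PrL (37.3%). These shares of all genes are high, so the counts say little about the subunits beyond the sizes. The median size of the 9 log2 differences was 1.36 for VBT against NAc, where it was 0.47 over all genes, and 0.15 for S1 against PrL, where it was 0.23.

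Some orders rested on the libraries chosen. In the 50 fentanyl libraries VTA lay below VBT for Grik5 (log2 difference -0.22), below S1 for Grik3 (-0.30) and below PrL for Grik4 (-0.38), where in water it lay above. VTA and VBT then hardly differed in Gria4 (0.02).

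The make-up of each family followed from these levels. In water, Gria1 made up 45.6% ± 4.02 (SD, n = 10) of summed AMPA levels in NAc, 41.2% ± 3.07 (n = 9) in VTA, 38.1% ± 2.23 in PrL, 25.6% ± 2.29 in S1 and 23.5% ± 4.24 in VBT. The Gria2 share was largest in S1, 41.3% ± 2.39, and smallest in VBT, 17.8% ± 1.96, with VTA at 24.9% ± 1.67. The Gria4 share was 34.0% ± 2.78 in VBT and 6.11% ± 0.506 in NAc.

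Among kainate genes, Grik5 took 65.0% ± 3.72 in S1, 56.5% ± 3.13 in PrL, 50.1% ± 3.12 in NAc, 46.8% ± 2.35 in VBT and 43.8% ± 2.61 in VTA. VTA had the largest Grik4 share, 11.8% ± 0.744. VBT had the largest Grik1 share, 13.5% ± 3.51, against 2.31% ± 0.442 in NAc. Summed AMPA levels exceeded summed kainate levels in every region, by 2.58 ± 0.348 times in VTA up to 3.36 ± 0.259 times in S1.

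**Figure D2:**
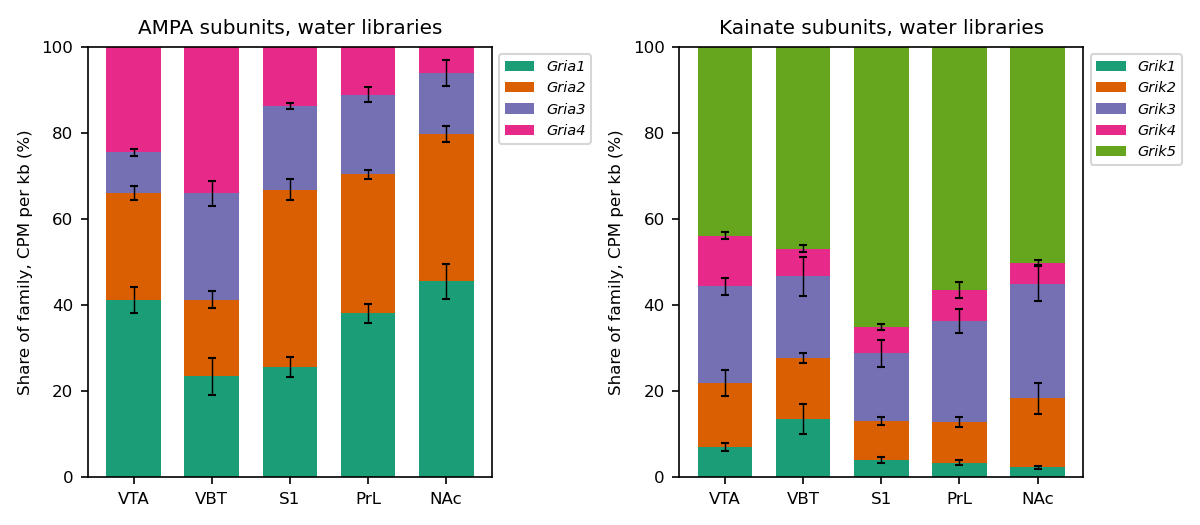
Stacked bars of the mean share of each subunit in the summed CPM per kb of its family (percent), AMPA genes left and kainate genes right, by region in water libraries; error bars are the SD over libraries. The Gria2 share is 41.3% in S1 and 17.8% in VBT, and Grik5 is the largest kainate share in all 5 regions.

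These shares depend on the length used. With the principal transcript of each gene in place of all exons (10371 against 15548 bases for Gria2), the Gria1 share in VTA was 35.4% and the Gria2 share 28.7%. Without division by length they were 28.2% and 43.8%, so that Gria2 then exceeded Gria1. In VBT, where Gria4 had the largest share by all exons, Gria3 had it by principal transcripts (33.5% against 28.6% for Gria4), and Gria2 without length (31.5% against 24.5%). A share is therefore not well compared between genes. Between regions, the order of the Gria1 share by all exons held with principal transcripts but not without length. Without length VBT lay above S1 (16.2% ± 2.97 against 14.4% ± 1.58), and VTA no longer lay below NAc. The Gria2 share was largest in S1 and smallest in VBT whichever length was used. The Gria4 share was likewise always largest in VBT and smallest in NAc.

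The genes most alike in pattern were named by Pearson's r of log2 CPM over the 48 water libraries, among 12082 genes with a mean of at least 5 CPM, as a description across libraries that share regions. For Gria2 they were Arhgap20 (r = 0.986) and A830018L16Rik (0.983), and for Grik5 Palm (0.987) and Chst1 (0.976). For Gria1 they were Meaf6 (0.958) and Nsg2 (0.950), for Gria3 Dcaf6 (0.968) and Ppp3cb (0.966), and for Gria4 Bend6 (0.939) and Mindy2 (0.936). Grik1 was most like Siah3 (0.927) and Fbxo9 (0.917), Grik2 like Akap9 (0.921) and Fam102b (0.915), and Grik4 like Smim10l2a (0.911) and Bcl9 (0.876). Grik3 was most like Aldh1b1 (0.915) and Grip1 (0.892), which encodes a scaffold that binds AMPA receptor tails.

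Within a region, the levels of some subunits correlated with those of the region's marker genes. For each of the 45 pairs of region and member, log2 CPM was related across libraries to the region's own marker score, the mean log2(CPM + 1) of its 6 markers. These relations were added with the data in view. By a two-sided permutation test with 100000 resamples, Pearson's r passed an adjusted p of 0.05 in 19 of 45, and these were the 19 with r of at least 0.5 in size. That size was reached by 6 of 9 subunits in VBT, by 1 of 9 in S1 and by 4 of 9 in each of NAc, PrL and VTA. Among all genes with a mean of at least 5 CPM it was reached by 50.7% for VBT, 33.2% for S1, 33.9% for NAc, 36.5% for PrL and 33% for VTA. Correlation with the score was thus common among all genes, and the counts say little about the subunits as a group.

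In VTA, Grik3 rose with the dopamine score across 19 libraries (r = 0.817, permutation p = 7e-05, adjusted 0.00105, and Spearman's rho = 0.802, p = 0.00011, adjusted 0.00165). Without the 2 libraries farthest from the median r was 0.792, and it was 0.877 within water and 0.746 within fentanyl. Grik5 did likewise (r = 0.731, permutation p = 0.00031, adjusted 0.00232; rho = 0.651, p = 0.00304, adjusted 0.0145; 0.628 without 2 libraries; 0.661 within water and 0.738 within fentanyl). The correlation of Gria4, -0.552 (permutation p = 0.014, adjusted 0.0371; rho = -0.504, p = 0.0293, adjusted 0.0824), shrank to -0.154 without its 2 farthest libraries and so rests on them.

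In VBT, Gria3 and Grik1 rose with the relay score over 20 libraries (r = 0.786 and 0.739, adjusted permutation p = 0.00198 and 0.00255; rho = 0.633 and 0.693, adjusted 0.0145 and 0.0087). Both stood without the 2 farthest libraries (0.81 and 0.74). Within water r was 0.933 for Gria3 and 0.866 for Grik1, and within fentanyl 0.915 and 0.812. Grik3 went the other way (r = -0.665, adjusted permutation p = 0.00255, with rho = -0.602, adjusted 0.0238, and -0.595 without 2 libraries). Gria4 (r = 0.603), Gria2 (-0.547) and Grik2 (-0.539) also passed (adjusted permutation p = 0.0154, 0.0357 and 0.0432). Without the 2 farthest libraries they were at 0.505, -0.238 and 0.0125. Their rho did not pass (adjusted permutation p = 0.105, 0.191 and 0.771).

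In NAc, Grik2 rose with the striatal score (r = 0.855 over 20 libraries, permutation p = 1e-05, the smallest the resamples can give, adjusted 0.00045; rho = 0.797, adjusted 0.00165; 0.776 without 2 libraries). Grik1 (r = -0.8, adjusted permutation p = 0.00105; rho = -0.814, adjusted 0.00135; -0.799 without 2), Gria3 (-0.734, adjusted 0.00198; rho = -0.656, adjusted 0.013; -0.531 without 2) and Grik3 (-0.646, adjusted 0.00912; rho = -0.568, adjusted 0.0371; -0.577 without 2) fell with it. In these libraries the mean log2 level of the cortical markers ran from 2.90 to 6.01. In S1 and PrL, Gria2 fell with the cortical score (r = -0.714 over 19 libraries and -0.667 over 20, adjusted permutation p = 0.00292 and 0.00255; rho = -0.735 and -0.687, adjusted 0.00585 and 0.0087; -0.591 and -0.565 without 2). In PrL, Grik4 gave r = 0.779 with the cortical score (permutation p = 0.00451, adjusted 0.0154, with rho = 0.382, p = 0.0989, adjusted 0.191), but 0.3 without the 2 farthest libraries, so that it rests on them. Gria4 and Grik2 in PrL also passed (r = -0.711 and -0.562, adjusted permutation p = 0.0152 and 0.0281), and were at -0.364 and -0.438 without these 2 libraries.

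The fentanyl groups were compared with the water groups of the same region and sex, in 1 edgeR fit per region with quasi-likelihood F-tests and Benjamini-Hochberg adjustment over all genes of the region. In VTA of males, 4 of the 9 subunits passed: Gria3 rose, and Grik3, Grik4 and Grik5 fell. In that comparison 22% of the 19822 genes tested were called, 11% in each direction. None of the 9 passed in females of VTA, where none of all genes did (0%), and averaged over the sexes the 3 kainate genes passed, all downward (23.1% of all genes called, 12% downward).

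**Figure D3:**
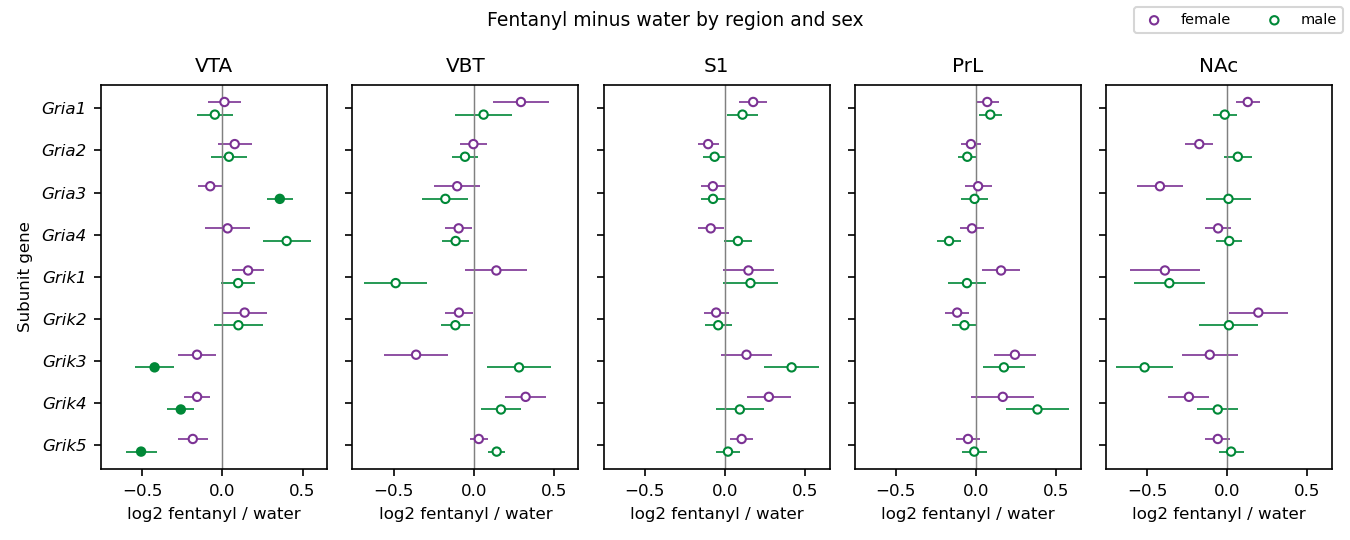
Log2 of fentanyl over water for the 9 subunit genes in 5 regions, females in purple and males in green; points are edgeR estimates, bars are 1 SE, and filled points have an adjusted p under 0.05. The filled points are Gria3, Grik3, Grik4 and Grik5 in VTA of males, from -0.51 for Grik5 to 0.36 for Gria3.

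For Gria3 in VTA, the male water libraries 1, 2, 4 and 5 had 107, 103, 99.0 and 113 CPM, and the male fentanyl libraries 1 to 5 had 115, 123, 135, 152 and 133. All fentanyl libraries lay above all water libraries. The log2 fold change was 0.36 ± 0.08 (SE), with an edgeR adjusted p of 0.00549. The other AMPA gene of similar size of change, Gria4, had 179, 208, 142 and 173 CPM in male water and 289, 213, 203, 236 and 185 in male fentanyl, with overlap, and 0.40 ± 0.15 (adjusted p = 0.0644) did not pass. Over 10 alternatives its male adjusted p ranged from 0.0202 to 0.412, and it was called in 3 of 19 fits with 1 library left out.

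For Grik5, the male water libraries had 112, 103, 130 and 126 CPM, and the male fentanyl libraries 65.8, 97.8, 80.8, 70.2 and 89.8. No fentanyl library reached the lowest water library. Grik5 fell by 0.51 ± 0.10 (SE) on the log2 scale, at an edgeR adjusted p of 0.00286.

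Grik3 had 111, 97.6, 99.1 and 107 CPM in male water and 67.3, 86.8, 93.7, 53.1 and 77.8 in male fentanyl, again without overlap. It fell by 0.42 ± 0.12 (SE; edgeR adjusted p = 0.0194). Grik4 had 33.7, 35.5, 36.7 and 38.6 CPM in male water and 28.8, 28.8, 31.7, 29.6 and 27.8 in male fentanyl. This smallest of the 4 changes, -0.26 ± 0.08 (adjusted p = 0.0337), also came without overlap.

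**Figure D4:**
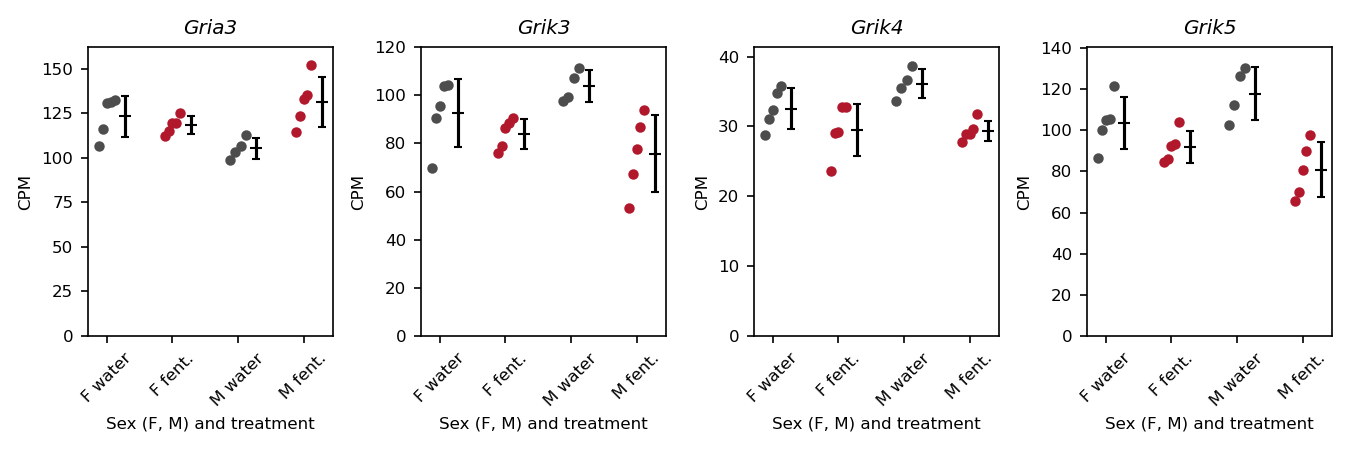
CPM of Gria3, Grik3, Grik4 and Grik5 in VTA by sex (F, M) and treatment; each point is 1 library, and the bars give the mean and SD. In males, fentanyl libraries lie above water libraries for Gria3 (115 to 152 against 99.0 to 113) and below them for the 3 kainate genes, while in females the groups overlap.

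In females of VTA the groups overlapped for all 4 genes. Gria3 had 132, 131, 131, 106 and 116 CPM in water and 120, 125, 112, 115 and 119 in fentanyl, for a log2 fold change of -0.08 ± 0.08 (SE). Grik5 had 86.3, 105, 100, 121 and 105 CPM in water and 84.4, 93.5, 86.0, 92.4 and 104 in fentanyl (-0.18 ± 0.09, edgeR adjusted p = 0.407). At an unadjusted p under 0.05, 0 of the 9 subunits and 12.7% of all genes passed in females, and DESeq2 called 0 of the 9 and 88 of 19822 genes.

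The sexes were not shown to differ in their fentanyl contrasts. The male minus female difference was 0.43 ± 0.11 (SE) for Gria3 and -0.32 ± 0.13 for Grik5, each with an edgeR adjusted p of 0.42. Unadjusted, 2 of the 9 and 11.4% of all genes passed 0.05, and DESeq2 called 0 of the 9 and 7 of 19822 genes. For the average of the sexes, Grik3 fell by 0.29 ± 0.08, Grik4 by 0.21 ± 0.06 and Grik5 by 0.35 ± 0.07 (adjusted p = 0.0184, 0.0145 and 0.0019), and this average uses the same libraries. Averaged, Grik1 was at 0.13 ± 0.07 (edgeR adjusted p = 0.226), and its lowest adjusted p over 10 alternatives was 0.0198.

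Gria1, Gria2, Grik1 and Grik2 did not pass in VTA of either sex. Their log2 fold changes in males were -0.05 ± 0.11, 0.04 ± 0.11, 0.10 ± 0.11 and 0.10 ± 0.15 (SE), and in females 0.01 ± 0.10, 0.08 ± 0.11, 0.16 ± 0.10 and 0.14 ± 0.14. The median size over the 9 subunits in males was 0.26, and 0.22 over all genes.

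The base composition of the transcripts differed between the called genes, while 2 uncalled genes lay outside that order. Of the 4 called genes, Gria3 has a GC content of 42.6% over its transcripts, at the 11.5th percentile of 12075 genes with at least 5 CPM, and Grik4, Grik3 and Grik5 have 53.3%, 54.2% and 60.8%, at the 67.9th, 72.9th and 97.6th percentiles. Gria2 and Grik2 have a lower GC content than Gria3, 41.3% and 41.6%, with male changes of 0.04 and 0.10 that were not called. In all 4 male water libraries the deviation of genes from the regional mean rose with GC content (Spearman's rho across genes 0.62 to 0.74), and in all 5 male fentanyl libraries it fell (-0.60 to -0.16). No male library of one treatment had the trend of the other, so within males a comparison at a like trend cannot be had.

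With GC content modelled as an offset in each library, none of the 9 subunits was called in VTA, and 2.49% of all genes were in males. The male log2 fold changes were then 0.18 ± 0.08 for Gria3 (edgeR adjusted p = 0.214), -0.25 ± 0.11 for Grik3 (0.216), -0.12 ± 0.09 for Grik4 (0.512) and -0.11 ± 0.06 for Grik5 (0.387). Each kept its direction. Over 10 alternatives the male adjusted p ranged from 0.000429 to 0.214 for Gria3, 0.00754 to 1 for Grik3, 0.0257 to 1 for Grik4 and 6.77e-05 to 0.387 for Grik5. The female water libraries held both trends: rho was 0.75 and 0.62 in libraries 4 and 5 and -0.39 to -0.29 in libraries 1 to 3. Libraries 4 and 5 had 106 and 116 CPM of Gria3 against 131 to 132 in the other 3, and 104 and 104 CPM of Grik3 against 69.6 to 95.7. For Grik4 they had 35.8 and 32.4 CPM against 28.7 to 34.8, with overlap, and for Grik5 121 and 105 against 86.3 to 105, library 5 lying just above the highest of the other 3. How far the GC trend and the treatment each account for the male calls cannot be told apart.

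**Figure D5:**
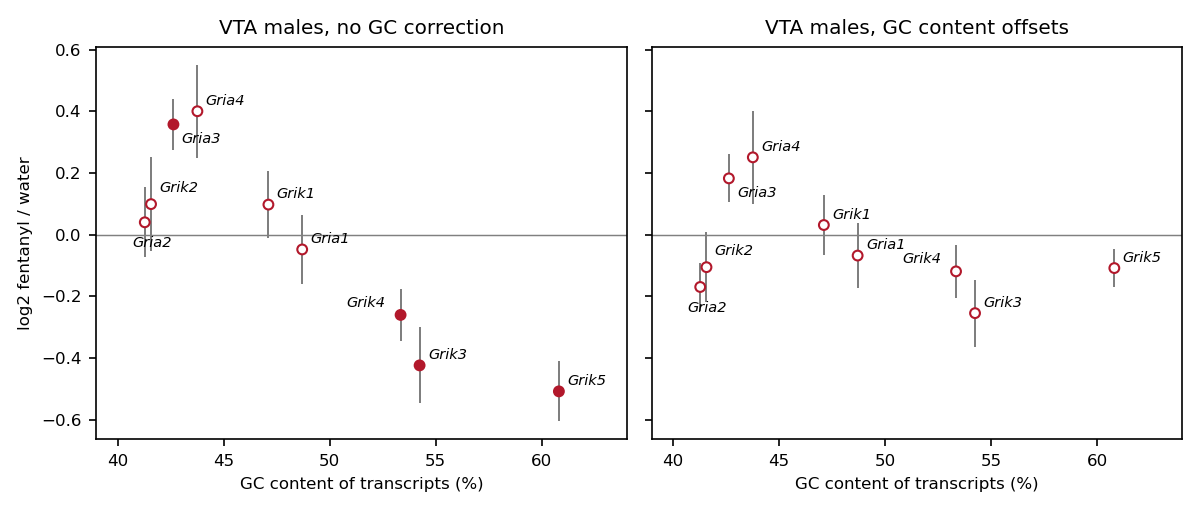
Log2 of fentanyl over water in VTA of males against the GC content of each gene's transcripts (percent), without correction (left) and with GC offsets (right); bars are 1 SE and filled points have an edgeR adjusted p under 0.05. Without correction Gria3, at a GC content of 42.6%, is at 0.36 and Grik5, at 60.8%, is at -0.51, and with offsets none is called and Grik5 is at -0.11.

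The summed CPM of the dopamine markers ran from 335 through a median of 678 to 1240 in male fentanyl and from 864 through 1143 to 1499 in male water. None of the 6 was called and none was at 0. With the dopamine score as a covariate, 1792 of the 19822 genes were called in males, and Gria3 and Grik5 were among them (edgeR adjusted p = 0.0302 and 0.0158), while Grik3 was at -0.25 ± 0.09 (0.0946) and Grik4 at -0.21 ± 0.09 (0.15). When each library in turn was left out, Gria3 and Grik5 were called in 19 of 19 fits, Grik3 in 17 and Grik4 in 13. Grik3 was lost without male fentanyl 1 or male water 1, and Grik4 without male fentanyl 1, 2 or 5 or male water 2, 4 or 5. With male water 3 kept, none of the 9 was called, and 0.216% of all genes were in males and 0.309% averaged. That library had a mean log2 level of 1.21 for dopamine markers and 8.32 for thalamic relay markers.

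In VBT, S1, PrL and NAc none of the 9 subunits passed edgeR's adjusted threshold in females, in males or averaged over the sexes. Few genes passed there at all: 0.142% in S1 of females (0.0152% downward) and 1.03% averaged, 0.021% in PrL of females and 0.697% averaged (0.556% downward), 0.662% in NAc of males, and 0% in the other comparisons. At an unadjusted p under 0.05, 1, 2 and 2 of the 9 passed in VBT (females, males, average), 0, 1 and 2 in S1, 0, 1 and 1 in PrL, and 1, 1 and 2 in NAc. The shares of all genes at that p were 9.035% to 17.6% for NAc, 9.53% to 19.1% for PrL, 7.15% to 15.8% for S1 and 7.86% to 8.70% for VBT, and counts of 0 to 2 of 9 are too small to set the subunits apart from these shares. DESeq2 called 1, Grik3 in NAc of males, where it called 924 of 19480 genes, and none elsewhere in these 4 regions, where it called at most 778 genes (PrL averaged).

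The largest uncalled differences were kainate genes and Gria3. In NAc of males Grik3 had 159, 172, 205, 209 and 181 CPM in water and 163, 94.8, 132, 102 and 140 in fentanyl. The groups overlapped by 1 fentanyl library, and -0.52 ± 0.18 (SE) had an edgeR adjusted p of 0.132 (0.0438 to 0.269 over 9 alternatives, the lowest from DESeq2). The 2 lowest fentanyl libraries, 2 and 4, had the highest striatal scores of all NAc libraries, 8.89 and 8.96. With that score as a covariate Grik3 was at -0.41 (adjusted p = 0.0767).

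In NAc of females Gria3 had 452, 323, 300, 379 and 401 CPM in water and 229, 242, 304, 296 and 324 in fentanyl (-0.42 ± 0.14, edgeR adjusted p = 0.544, and 0.31 to 0.917 over 9 alternatives). With the striatal score as a covariate Gria3 was at -0.16 (adjusted p = 0.917). The striatal score was 8.21 to 8.77 in these fentanyl libraries and 7.19 to 8.65 in the water libraries. Averaged over the sexes, Grik1 in NAc was at -0.38 ± 0.16 (adjusted p = 0.357), at -0.07 with the striatal score as a covariate, and at -0.48 with the share of non-exonic reads in its place, which passed (0.0428, the lowest of 9 alternatives, which reach 0.908). In that last fit 394 of 19480 genes were called.

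In VBT of males Grik1 had 33.9, 32.7, 20.6, 33.8 and 35.7 CPM in water and 26.2, 25.0, 26.6, 19.2 and 15.6 in fentanyl. All fentanyl libraries lay below 4 of the 5 water libraries, and the fifth, male water 3, had the lowest relay score of VBT, 7.17. The log2 fold change of -0.49 ± 0.19 (SE) had an edgeR adjusted p of 0.469. With the relay score as a covariate it was -0.62 and passed (0.0031, the lowest of 10 alternatives, which reach 0.744), as 1 of 13 genes called. In females of VBT Grik1 was at 0.14 ± 0.19.

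In S1, Grik3 was at 0.42 ± 0.17 in males (edgeR adjusted p = 0.678) and 0.14 ± 0.16 in females, and Gria1 at 0.14 ± 0.07 averaged (0.284). In PrL, Grik4 was at 0.28 ± 0.14 averaged (0.294), and at 0.15 without the libraries that held olfactory bulb markers (0.21 to 0.931 over 10 alternatives). In both cortical regions all Gria2 estimates were within 0.11 of 0.

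The make-up of the families was tested with 4 measures in each region, by exact two-sided permutation tests in females, in males and over both sexes, 60 in all. None passed after adjustment over the 60 (lowest adjusted p = 0.119). In VTA of males the log2 ratio of summed kainate to summed AMPA levels was -1.25 ± 0.0811 (SD, n = 4) in water and -1.70 ± 0.128 (n = 5) in fentanyl, without overlap. The exact permutation p of 0.00794 is the smallest this design allows. With the GC trend removed the difference of -0.45 became -0.11.

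The joint share of Grik4 and Grik5 in VTA was 55.6% ± 2.74 (n = 9) in water and 51.7% ± 2.79 (n = 10) in fentanyl (exact permutation p = 0.00661, adjusted 0.119). The difference within sexes, -4.07 points averaged and -4.90 in males, turned to 0.462 and 1.54 with the GC trend removed, so its direction depends on that trend. In VBT the share was 53.3% ± 2.36 (n = 10) in water and 56.2% ± 2.43 (n = 10) in fentanyl (exact permutation p = 0.00491, adjusted 0.119). In NAc of females the Gria1 share was 42.4% ± 2.44 in water and 48.5% ± 2.98 in fentanyl (n = 5 each; exact permutation p = 0.0238, adjusted 0.204), and in males 48.7% ± 2.28 and 47.7% ± 3.09 (exact permutation p = 0.548). Averaged over the sexes, the Gria1 share in S1 was 2.86 points higher in fentanyl (permutation p = 0.0182, adjusted 0.204) and the Gria2 share in PrL 1.12 points lower (permutation p = 0.0217, adjusted 0.204).

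Receptor partners were read from a list of 23 genes for auxiliary subunits, scaffolds, editing and delta receptors. Cacng7 had a count in 3 and Cacng8 in 14 of the 98 libraries, so both fell under the filter on low counts, and 21 were tested. Whether low expression or the read counting lies behind the missing counts was not tested. In VTA of males 8 of the 21 were called (22% of all genes were): Neto1, Neto2, Dlg1 and Nsf rose, and Cnih2, Dlg4, Grip2 and Pick1 fell. None passed edgeR's threshold in VTA of females, where 3 of the 21 and 12.7% of all genes had an unadjusted p under 0.05, or in the other 4 regions. There 1 to 4 of the 21 had an unadjusted p under 0.05 in either sex, beside 7.15% to 13.9% of all genes, apart from 6 in NAc of males, where 17.6% of all genes did. In NAc of males DESeq2 called 2 of the 21, and 924 of 19480 genes. Averaged over the sexes, 9 of the 21 had such a p in NAc (12.03% of all genes), 6 in PrL (19.07%), 3 in VBT (8.487%) and 2 in S1 (15.83%). The risers have a GC content of 38.2% to 47.8% and the others 53.0% to 61.8%.

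Pick1 encodes a protein that binds AMPA receptors and takes part in their removal from the surface. In VTA it had 18.9, 16.1, 20.02 and 17.6 CPM in male water and 9.62, 11.5, 10.5, 11.6 and 11.3 in male fentanyl. The groups were well apart, and Pick1 fell by 0.70 ± 0.11 (SE) on the log2 scale, at an edgeR adjusted p of 0.00218. With GC offsets it was still called, at -0.57 (0.0103), the only one of the 21 to be so. In females Pick1 had 13.2, 12.4, 12.3, 18.3 and 16.3 CPM in water and 10.7, 12.1, 11.5, 12.2 and 14.3 in fentanyl (-0.27, adjusted p = 0.333). There the female water libraries 4 and 5, with the GC trend of the male water libraries, were again the highest.

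Neto1 and Neto2 encode auxiliary subunits of kainate receptors, and Dlg4 the scaffold PSD-95. Neto1 was at 40.2 ± 2.81 CPM (SD, n = 4) in male water and 55.4 ± 3.59 (n = 5) in male fentanyl of VTA. Neto2 was at 59.7 ± 4.28 and 83.7 ± 14.5, and Dlg4 at 355 ± 11.1 and 285 ± 30.7 CPM. Their edgeR adjusted p-values were 0.0176, 0.0214 and 0.00615, and with GC offsets 0.187, 0.195 and 0.277.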

How the data were processed

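RNA was made into libraries with the Smart-Seq v4 kit from 10 ng of RNA, per the labels' protocols. The authors' deposited values are raw counts of reads per gene over exons. The submitters' processing notes name HTSeq and the build GRCm38. The aligner and the annotation release are not given in the sources used here. Smart-Seq v4 does not mark strand, so reads in overlapping genes cannot be parted by strand. Exons of the members overlap only annotated small RNAs, by at most 111 bases. The 5 lines of unassigned reads were left out of totals. GENCODE M21 matched 55154 of the 55335 gene IDs. No pair of libraries of a group agreed within sampling noise (lowest chi-square per degree of freedom 6.47).

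Tests used edgeR 4.0.16 in R 4.3.3 (TMM, filterByExpr, robust quasi-likelihood fit) with the 4 groups of a region in 1 fit, and were tested on simulated data. Calls are at an adjusted p under 0.05. Regions were compared in 1 fit of the 48 water libraries. Exact permutation tests and scores used scipy 1.17.1 and numpy 2.4.6. Alternatives were DESeq2 1.42.0 and its size factors, no filter on low counts and a mean of at least 50 counts, GC content and exon length as spline offsets of 6 degrees of freedom, a replicate block, covariates and leave-one-out fits. GC content came from the annotation's transcripts. The members and lists were chosen with earlier results of these data known. All 9 members were named whatever their values. Of the partner genes called in a region in females, in males or averaged, at most the 4 with the smallest p in any of these contrasts were given values, and for each member the 2 most correlated genes were named. Within a region and sex, the deviations of same-numbered fentanyl and water libraries had mean correlations of -0.0561 to 0.0868. The labels do not pair them, and the numbers were not taken as pairs. The highest mean was that of VTA females, 0.0868 against -0.0214 for libraries of unlike number. There 4 of 5 fentanyl libraries deviated most like the water library of their own number, so a pairing in that group is not excluded.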

Additional observations from a re-analysis of the deposited data

Results flagged for a closer look

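In groups of 4 or 5 libraries, 180 sets of levels and 80 sets of mix measures (the shares of Gria1, Gria2 and Grik4 with Grik5, and the log2 kainate to AMPA ratio) were searched for a lone highest or lowest library by Dixon's test at 95%. It marked 10 levels and 2 shares, where chance gives about 1 in 20, or 9 and 4.

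Grik1 and Grik5 were both marked in male water 3 of VBT, at 20.6 CPM against 32.7 to 35.7 in the other 4 libraries for Grik1 and 93.2 against 77.5 to 80.7 for Grik5. That library also had the lowest relay neuron score of VBT, 7.17. Grik1 and Grik2 were both marked in female water 3 of NAc, at 7.68 CPM against 12.6 to 14.2 and 245 against 110 to 143. Its striatal score, 8.65, was the highest and its cortical score, 4.10, the lowest of the female water libraries of NAc. Grik3 and Grik4 were both marked in male water 3 of S1, at 98.9 CPM against 65.0 to 69.4 and 14.6 against 21.6 to 22.7.

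The other marked levels were Gria2 in male fentanyl 5 of NAc, 999 CPM against 1224 to 1294, and Gria4 in female fentanyl 4 of VBT, 205 against 190 to 194. Gria4 in female water 1 of PrL was at 121 CPM against 143 to 148, and Grik4 in female fentanyl 1 of PrL at 32.5 against 35.1 to 36.1. The Gria2 share was 30.4% in female fentanyl 3 of VTA against 24.1% to 25.2%, and 35.8% in female fentanyl 2 of S1 against 39.9% to 40.7%.

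In the library left out of the comparisons, male water 3 of VTA, 3 subunits were above all other VTA water libraries. Gria4 was at 261 CPM against 142 to 259, Grik1 at 47.8 against 18.4 to 29.1, and Grik5 at 144 against 86.3 to 130. It had no count of Grik3, and its mean log2 level of thalamic relay markers was 8.32 and of dopamine markers 1.21.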

How the results depend on the processing

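Counts of called subunits in VTA (4 in males, 3 averaged) were 0 and 0 with male water 3 kept, 0 and 0 with GC offsets, and 2 and 1 with the dopamine score as a covariate. Leaving out 1 library gave 2 to 5 and 3 to 5. Called partner genes in VTA (8 in males, 7 averaged) numbered 0 and 0 with male water 3 kept, 1 and 1 with GC offsets, 2 in males with the dopamine score, and 5 to 9 in males with 1 library left out. From 0, called subunits became 1 in VBT of males and 1 for the sex difference there with the relay score (13 and 2 of all genes), 1 in NAc of males with DESeq2 (924) and 1 averaged with the share of reads outside exons (394). For S1 against PrL they went from 4 to 2 with male water 3 of VTA kept, as all genes called went from 8015 to 2360. Partner genes in NAc of males, from 0, became 2 with DESeq2 or GC offsets, 3 with length offsets, 1 with a mean of 50 counts or the striatal score (924, 831, 411, 279 and 630 of all genes, against 129), and 0 to 3 with 1 library left out. For the sex difference they became 1 in NAc with DESeq2, GC or length offsets (462, 124 and 79 of all genes), 1 in VBT with DESeq2 (109), and 0 to 1 in each with 1 library left out, and averaged in NAc 1 with the share of reads outside exons.

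Of single values, Grik4 in VTA of males turned to 0.0609 with male water 3 kept. In fentanyl libraries the region differences turned to 0.0161 (Gria4) and -0.22 (Grik5) for VTA against VBT, -0.30 (Grik3) for VTA against S1, -0.38 (Grik4) for VTA against PrL and 0.20 (Grik4) for S1 against NAc, and in females alone to -0.0900 (Gria3) for S1 against NAc. With male water 3 kept, the male difference in the Gria1 share of VTA turned from -5.10 to 0.627 points. With the GC trend removed, the joint share of Grik4 and Grik5 in VTA turned from lower to higher in fentanyl, by 1.54 points in males and 0.462 averaged. The log2 kainate to AMPA ratio, likewise, shrank to differences of -0.11 and -0.0469 in VTA (males, averaged) and turned from 0.13 to -0.0408 in S1 of females. The averaged ratio in VTA ranged from -0.32 to -0.25 with 1 library left out, past the threshold only without female water 1 (adjusted p = 0.0378). The causes were not tested.

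With the replicate number as a block, 4 subunits were called in VTA of males (Gria4 in, Grik4 out at an adjusted p of 0.0686) and 4 averaged (Gria4 in), with 3855 and 4195 of all 19822 genes. In VTA of females 4 of 5 fentanyl libraries deviated most like the water library of their own number, and in VTA of males 0 did. All subunits had counts enough to be tested in every region, the lowest count in a water library used being 266.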
